A study of Mus musculus with 10 samples.

Results

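The Reg genes encode small secreted C-type lectins of the pancreas and gut. All 6 members chosen by name (Reg1, Reg2, Reg3a, Reg3b, Reg3d and Reg3g) were present among the 12160 genes listed in the expression table, and their values were read in all 10 libraries. The libraries were prepared by Smart-Seq2, a low-input RNA-seq method, from 100 FACS-sorted pancreatic cells each. Tuft cells (Cd45-neg; EpCAM+; Siglec f+; n = 5) and non-tuft epithelial cells (Cd45-neg; EpCAM+; Siglec f-neg; n = 5) were taken from 5 wild-type male mice. The animals are described as CD1 in the protocol, while the strain field of the labels reads "Mixed". Every animal had caerulein-induced pancreatitis, from 4 cycles of caerulein at 250 µg/kg followed by a recovery of 0 to 2 days, so the libraries hold no uninjured pancreas. The ages of the mice are not given in the sources used here, and neither is which tuft and non-tuft libraries came from the same mouse.

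Reg proteins are made mainly by acinar cells, the enzyme-secreting cells of the exocrine pancreas, and some by islet and intestinal epithelial cells. Reg1 encodes lithostathine, also called pancreatic stone protein, and Reg2 is its close relative in the mouse. Reg3b, the classical pancreatitis-associated protein, and Reg3g are bactericidal lectins that bind bacterial surfaces. Reg3a and Reg3d are further Reg3 paralogs, of which Reg3d is related to the islet neogenesis-associated protein. In pancreatitis and in the infected gut, Reg genes are known to be induced by cytokines of the IL-6 and IL-22 type through Stat3.

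The 6 genes lie side by side on chromosome 6. In an annotation of NCBIM37, the build that the mm9 files use, the cluster runs from base 78320879 to base 78418868, a span of 98.0 kb that holds 6 annotated genes, all of them Reg genes. Their order is Reg3b (78320879 to 78323460, + strand), Reg3d (78325868 to 78328859, - strand), Reg3a (78330703 to 78333833, + strand), Reg2 (78355149 to 78358091, + strand), Reg1 (78375974 to 78378661, + strand) and Reg3g (78416262 to 78418868, - strand). Each gene has 6 exons and a coding sequence of 498 to 528 bases.

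Because the paralogs are alike, their coding sequences were compared for reads that could be assigned to the wrong gene. Identity was highest for Reg1 and Reg2 (82.5% of aligned coding bases), followed by Reg3a and Reg3b (76.5%) and Reg3b and Reg3g (76.4%). The longest run shared by any pair starts at coding base 26 of both Reg3b and Reg3g and is 35 bases long. It is printed first as the longest of the family, and the longest run that Reg1 shares with Reg2 follows because that pair has the highest identity.
Reg3b and Reg3g: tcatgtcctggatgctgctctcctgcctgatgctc
Reg1 and Reg2: ccaatgtctggactggact
Both runs are shorter than the 50-base reads. With 1 annotated transcript taken for each Reg gene, no 50-base window (643 to 788 windows a gene) matched a coding transcript of another gene exactly. A read identical to these transcripts thus has 1 gene of origin among the annotated coding transcripts. Noncoding genes and the rest of the genome were not searched.

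The 250 bases before each annotated start are shown for 5 of the genes from the RefSeq promoters of build GRCm38.p6. Reg3a and Reg3d had the largest differences between the groups, Reg1 had the smallest, and Reg3b and Reg3g have the promoters most alike among the 15 pairs (173 of 250 bases identical, 69.2%). Capitals mark the E-box CACCTG.
Reg1 (chr6:78425733-78425982, + strand): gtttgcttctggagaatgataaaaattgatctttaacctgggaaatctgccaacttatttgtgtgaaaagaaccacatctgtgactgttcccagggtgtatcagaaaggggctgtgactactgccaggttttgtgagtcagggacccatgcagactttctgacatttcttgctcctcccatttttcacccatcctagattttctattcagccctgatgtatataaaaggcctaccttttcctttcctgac
Reg3a (chr6:78380459-78380708, + strand): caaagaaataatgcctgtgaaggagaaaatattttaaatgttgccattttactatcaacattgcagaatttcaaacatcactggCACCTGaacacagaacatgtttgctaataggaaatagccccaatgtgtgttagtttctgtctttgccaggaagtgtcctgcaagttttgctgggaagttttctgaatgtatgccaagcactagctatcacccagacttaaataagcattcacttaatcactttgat
Reg3d (chr6:78378866-78379115, - strand): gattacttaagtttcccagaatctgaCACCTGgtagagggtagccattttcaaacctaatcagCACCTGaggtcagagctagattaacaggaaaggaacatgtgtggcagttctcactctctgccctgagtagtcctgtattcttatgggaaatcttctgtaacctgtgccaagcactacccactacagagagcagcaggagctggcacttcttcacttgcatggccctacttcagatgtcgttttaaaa
Reg3b (chr6:78370635-78370884, + strand): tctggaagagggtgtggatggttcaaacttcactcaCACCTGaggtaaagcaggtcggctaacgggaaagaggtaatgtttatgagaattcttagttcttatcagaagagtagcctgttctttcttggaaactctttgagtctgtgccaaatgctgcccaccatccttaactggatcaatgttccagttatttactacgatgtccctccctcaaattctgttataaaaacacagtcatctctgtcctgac
Reg3g (chr6:78468875-78469124, - strand): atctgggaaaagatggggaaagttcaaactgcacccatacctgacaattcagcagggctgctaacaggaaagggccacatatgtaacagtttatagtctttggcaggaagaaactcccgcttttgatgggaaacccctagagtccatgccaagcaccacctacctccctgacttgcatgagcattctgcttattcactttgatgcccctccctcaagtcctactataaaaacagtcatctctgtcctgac
The Reg3b and Reg3g promoters end in the same 20 bases before the start, acagtcatctctgtcctgac. CACCTG, searched on both strands, was found in the promoters of Reg2, Reg3a, Reg3b and Reg3d, which makes 4 of 6 against 17.2% of all 32851 promoter windows of this length. TGGGAA, also searched on both strands, was found in 5 of 6 (all but Reg3b) against 21.6% of windows. An E-box paired with a TGGGAA box is the kind of site read by the acinar factors Ptf1a and Rbpjl. Only Reg2, Reg3a and Reg3d had a match to each, and the spacing between the matches was not tested. TATAAA, searched on the printed strand only, was found in 4 of 6 (Reg1, Reg2, Reg3b and Reg3g), starting between -30 and -27 counted from the start, against 7.59% of windows. TTCNNNGAA, the form of site that Stat proteins read, was found in Reg3b and Reg3d, starting at -129 and -238, against 7.02% of windows. The match in Reg3d overlaps a TGGGAA match on the other strand. The motifs were chosen after the promoters had been seen, and a match describes letters only.

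Libraries of the same group correlated at r = 0.811 to 0.913 across genes for tuft and r = 0.685 to 0.795 for non-tuft cells. Of the 17 tuft markers searched for, 16 were listed, and all 16 were called higher in tuft cells by the rule given in the next paragraph, as were 4.32% of all listed genes. Their summed level, in log2 units, was 12.3 to 13.7 in tuft and 1.24 to 9.37 in non-tuft libraries. Non-tuft libraries 1, 2 and 5 held Dclk1, a tubulin kinase, at 6.84, 8.46 and 7.14, and non-tuft libraries 3 and 4 at 2.88 and 0. The authors report that Dclk1 is higher in tuft cells but not specific to them. The 3 tuft markers with the smallest p were lower in non-tuft libraries 1 to 5. Siglecf was at 0, 1.61, 0, 0 and 0, Gfi1b at 0, 0.17, 0, 0 and 2.61, and Alox5ap at 1.61, 3.92, 0.78, 0 and 5.01. In tuft libraries Dclk1 was at 10.68 to 12.73. The 23 listed acinar enzyme and granule genes were not at 0 in the tuft libraries. Their summed level, in log2 units, was 10.6 to 16.9 in tuft and 17.1 to 17.5 in non-tuft libraries. Values are log2(RPKM + 1) after quantile normalization, a scale that is corrected for gene length and gives each library the same distribution of values, so that equal ranks in different libraries have equal values. The depth of the libraries is unknown, because read counts were not used here.

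All 6 Reg genes were lower in tuft cells. A gene was called when its adjusted p (limma) was under 0.05 and its fold change over 4. By this rule all 6 were called lower, as were 3.99% of all 12160 listed genes. The median difference of the Reg genes (tuft minus non-tuft) was -4.22 log2 units, against a median of 0.02 over all listed genes. In 5 of the 6, all tuft libraries were below all non-tuft libraries, which was true of 5.12% of all listed genes. With non-tuft libraries 1, 2 and 5 left out together, an alternative added after seeing the data, 4 of the 6 were called lower. Reg1 (-2.45, adjusted p = 0.198 by limma) and Reg3g (-5.23, adjusted p = 0.0661 by limma) were then not called. In such bulk samples, fewer cells that express a gene and less RNA per cell cannot be told apart.

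Reg1, the most abundant member, was at 13.61, 13.61, 14.43, 14.43 and 14.43 log2 units in non-tuft libraries 1 to 5. In tuft libraries 1 to 5, Reg1 was at 12.53, 12.63, 11.66, 13.44 and 9.63. The groups did not overlap, but tuft library 4 came within 0.17 of the lowest non-tuft libraries while tuft library 5 lay far below the others. Reg1 ranked 3 to 5 among all listed genes in non-tuft libraries and 6 to 60 in tuft libraries. It was thus among the highest genes in the libraries of both groups. Whether acinar RNA in the tuft libraries had a part in these ranks was not tested. The difference in Reg1 was -2.12 log2 units (standard error 0.62, adjusted p = 0.0422 by limma), a level 4.36-fold higher in non-tuft cells (95% interval 1.72 to 11.1). The exact two-sided permutation test over the 10 libraries gave p = 0.00794, the smallest that 5 against 5 libraries allow. The call for Reg1 was lost when any 1 library other than tuft library 4 was left out, with differences of -2.29 to -1.54 and adjusted p (limma) of at least 0.0587. It was also lost with the libraries centred on ribosomal protein genes (-1.33, adjusted p = 0.111 by limma).

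Reg2 was at 11.53, 12.14, 12.46, 13.11 and 12.63 in non-tuft libraries 1 to 5. The tuft libraries held Reg2 at 7.16, 8.26, 8.73, 10.20 and 6.14. All tuft libraries were below all non-tuft libraries, with a gap of 1.32 between the groups. The level of Reg2 was 8.10 ± 1.55 in tuft and 12.37 ± 0.59 in non-tuft cells (SD, n = 5 each), a 19.3-fold difference (95% interval 7.17 to 52.1, adjusted p = 0.00107 by limma). Its closest relative Reg1 thus stood 3.88 ± 0.99 log2 units above Reg2 in tuft cells and 1.73 ± 0.32 above it in non-tuft cells (SD, n = 5 each).

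Reg3b, the pancreatitis-associated protein, was at 10.31, 11.28, 13.11, 12.86 and 12.86 in non-tuft libraries 1 to 5. Its tuft values were 6.45, 7.25, 8.90, 10.52 and 6.47. Reg3b was the 1 member whose groups overlapped, since tuft library 4 (10.52) lay above non-tuft library 1 (10.31). The difference in Reg3b was -4.16 log2 units (standard error 0.82, adjusted p = 0.00477 by limma), or 17.9-fold (95% interval 5.28 to 60.9). The exact two-sided permutation test gave p = 0.0159.

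Reg3g, the other bactericidal lectin, had the lowest mean of the family in both groups. Its non-tuft values were 5.32, 4.81, 7.69, 8.64 and 8.54, and its tuft values were 0, 4.01, 4.47, 4.50 and 1.69. The groups did not overlap, but they came within 0.31, and non-tuft libraries 1 and 2 were well below the other non-tuft libraries. Reg3g was listed at 0 in tuft library 1. The difference was -4.07 log2 units (standard error 1.00, 95% interval -6.23 to -1.91, adjusted p = 0.0176 by limma) and the fold 16.8, which depends on the constant 1 added before the logarithm. The call for Reg3g was lost without tuft library 5 or non-tuft library 3, 4 or 5 (differences of -3.89 to -3.66, adjusted p of 0.0503 to 0.0559 by limma), and with 0.1 added in place of 1 (-4.85, adjusted p = 0.0777 by limma).

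Reg3a and Reg3d differed most between the groups. Reg3a was at 8.57, 10.20, 9.32, 11.21 and 11.35 in the non-tuft libraries and at 4.004, 4.42, 3.01, 7.25 and 2.86 in the tuft libraries. Reg3d was at 8.71, 9.42, 7.73, 9.79 and 9.24 in the non-tuft libraries and at 3.41, 4.54, 1.88, 5.24 and 1.96 in the tuft libraries. Neither gene overlapped between the groups, and the gap of Reg3d, 2.49 log2 units, was the widest of the 6. Reg3a fell by 5.82 log2 units (standard error 0.81, adjusted p = 5.27e-04 by limma), a 56.6-fold difference (95% interval 16.7 to 192). Reg3d fell by 5.57 log2 units (standard error 0.68, adjusted p = 1.86e-04 by limma), a 47.6-fold difference (95% interval 17.3 to 131). They were the 2 members that still passed when the fold change itself was tested against 4 with limma's treat. In rank, Reg3a went from a median of 46 in non-tuft to 3376 in tuft libraries, and Reg3d from 82 to 4519.

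**Figure D1:**
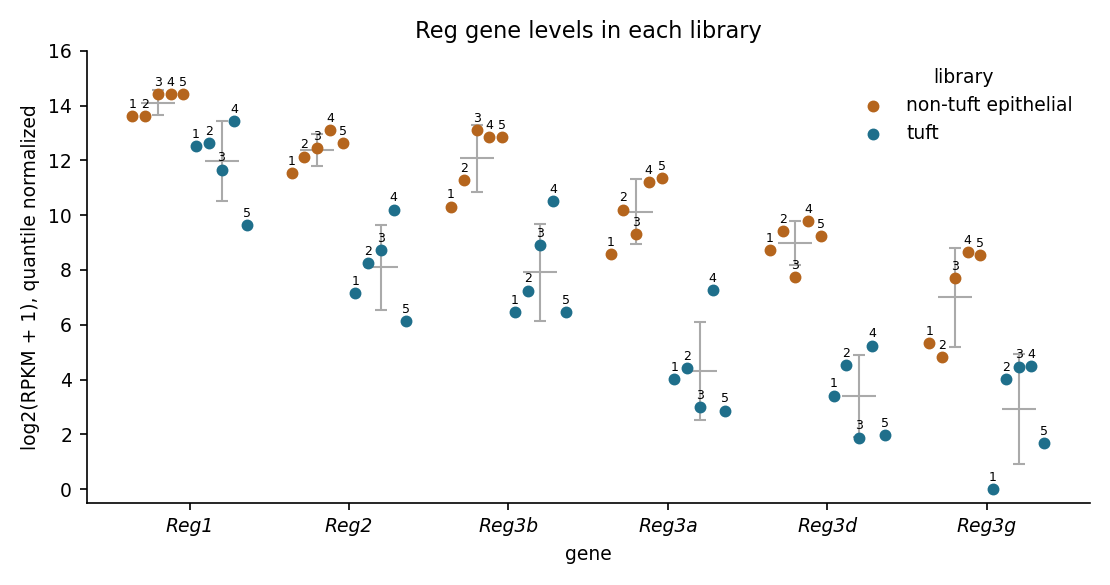
Level of each Reg gene in every library, as quantile normalized log2(RPKM + 1); points are libraries with their replicate number, and grey bars are the mean ± SD of 5 libraries. Orange non-tuft points lie above blue tuft points for each gene except Reg3b, where tuft 4 (10.52) is above non-tuft 1 (10.31), and tuft 4 is the highest tuft library for all 6 genes.

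The order of the mean levels was the same in both groups, with Reg1 highest, followed by Reg2, Reg3b, Reg3a, Reg3d and Reg3g. The scale is per length, but effects of amplification that differ from gene to gene were not checked. The order thus describes these values only. Within single libraries, Reg1 was above Reg2 and Reg3b above Reg3a in 5 of 5 libraries of each group. Reg2 and Reg3b were not separated, since their difference was 0.18 ± 0.63 log2 units in tuft and 0.29 ± 0.76 in non-tuft cells (SD, n = 5 each). Reg3a was above Reg3d in 4 of 5 libraries of each group, by 0.90 ± 0.78 and 1.15 ± 0.86. Reg3d and Reg3g differed by 0.47 ± 2.13 in tuft and 1.98 ± 1.94 in non-tuft cells, which is within or close to the spread. Reg3d was above Reg3g in 4 of 5 tuft and 5 of 5 non-tuft libraries. In tuft cells the order turned on single libraries: Reg3g stood above Reg3d without tuft library 1, and Reg3b above Reg2 without tuft library 2.

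**Figure D2:**
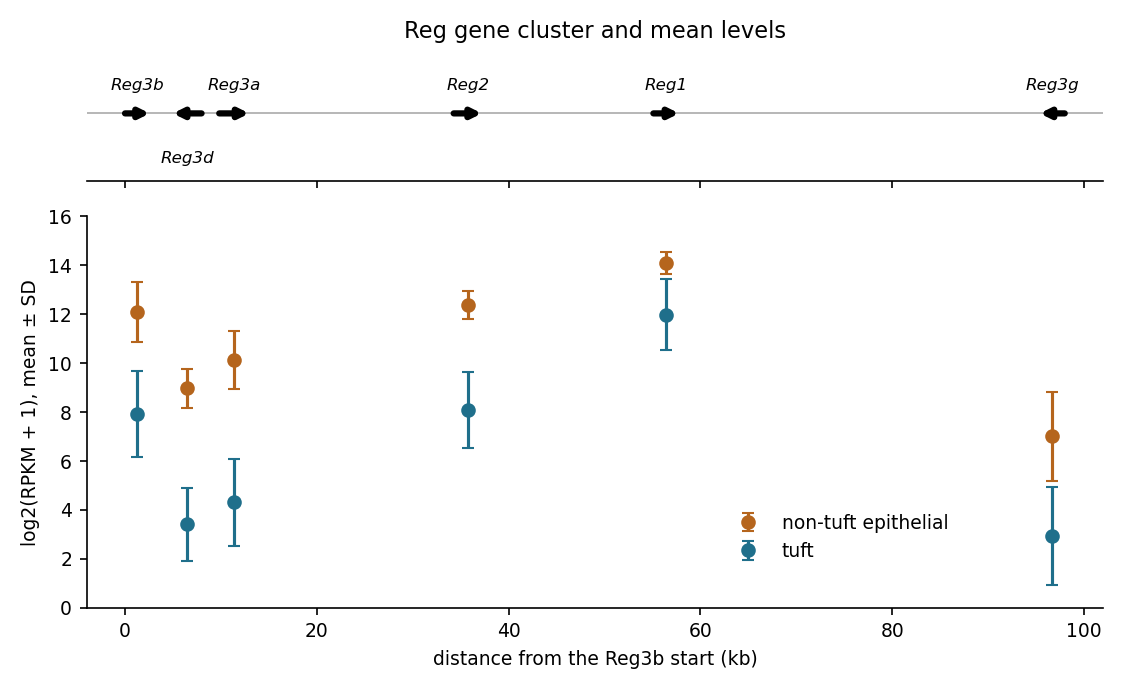
The Reg cluster drawn to scale, with arrows in the direction of transcription, above the mean level of each gene in quantile normalized log2(RPKM + 1) with bars of 1 SD (n = 5 libraries a group). The tuft mean is below the non-tuft mean at all 6 genes, and both groups have their highest mean at Reg1 and their lowest at Reg3g.

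Linear values (2 to the log2 value, minus 1) are set by rank after quantile normalization and are per gene length. Shares of their sum are thus not measured fractions of the RNA. On this scale the 6 Reg genes made up a sizeable part of the summed values in non-tuft libraries. Their sum was 3.14, 3.83, 6.72, 7.51 and 7.05% of the summed values of all listed genes in non-tuft libraries 1 to 5. In tuft libraries 1 to 5 it was 1.11, 1.23, 0.746, 2.50 and 0.171%. The shares did not overlap, and within the non-tuft group libraries 1 and 2 were below the other libraries. Reg1 made up 52.6 to 71.1% of the Reg sum in non-tuft and 77.7 to 95.9% in tuft libraries, so the Reg sum in tuft libraries was mostly Reg1. Reg3b was 7.25 to 23.5% of the Reg sum in non-tuft and 1.40 to 11.4% in tuft libraries. Reg3a was 1.70 to 6.63% against 0.169 to 1.09%.

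**Figure D3:**
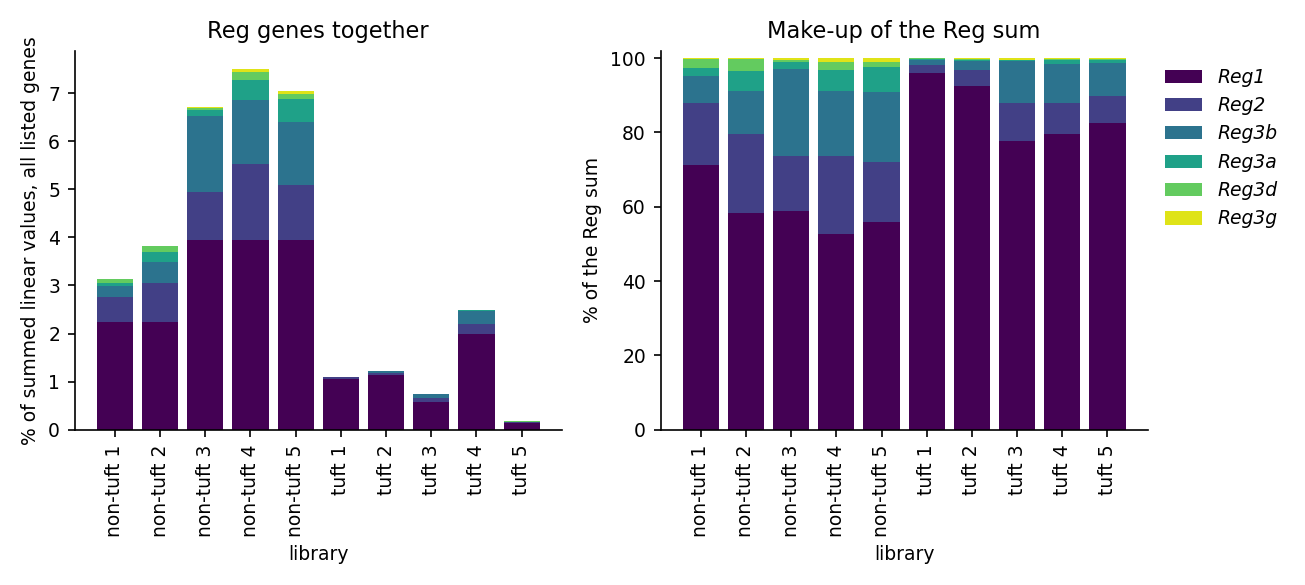
Left, the Reg genes as a percentage of the summed linear values of all listed genes in each library. Right, the percentage of the Reg sum from each gene; non-tuft libraries total 3.14 to 7.51% and tuft libraries 0.171 to 2.50%, with Reg1 the largest piece in all 10.

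Members did not all differ to the same degree. For each of the 15 pairs, the log2 ratio of the genes was taken within each library and compared between the groups with the exact two-sided permutation test. The ratio differed for 3 pairs, each with Reg1. Reg1 was the highest member in every library, so it lay nearest the top of the quantile normalized scale. Whether this had a part in the 3 pairs was not tested. Reg1 over Reg3a was higher in tuft cells by 3.70 log2 units, Reg1 over Reg3d by 3.45 and Reg1 over Reg2 by 2.15, with p = 0.00794 and, adjusted over the 15 pairs, p = 0.0397 (exact permutation test) for each. With non-tuft library 2 or 4 left out, or tuft library 1, 3 or 4, the lowest adjusted p was 0.0595 and 0 pairs passed, with 4 to 7 pairs at an unadjusted p under 0.05 (exact permutation test). Reg3b over Reg3g differed by -0.10 (exact permutation p = 0.897), with ratios of 4.98 ± 1.29 in tuft and 5.08 ± 0.92 in non-tuft cells (SD, n = 5 each). Reg3a over Reg3d differed by -0.25 (exact permutation p = 0.635) and Reg2 over Reg3b by -0.11 (exact permutation p = 0.802). For these 3 pairs the difference was small beside the spread between libraries, which does not show that the genes changed by the same amount.

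Acinar enzyme genes moved with the Reg genes. Of the 23 listed, 18 were called lower, against 3.99% of all listed genes, and 5 were not called. The median difference of the 23 was -4.53 log2 units. The difference was -5.15 log2 units for Cel, a lipase, -4.61 for Cpa1, a carboxypeptidase, and -4.13 for Amy2a5, pancreatic amylase. The mean level of the 23 genes was 8.62, 8.40, 6.25, 9.70 and 4.42 in tuft libraries 1 to 5 and 10.83 to 12.15 in non-tuft libraries. Tuft library 4 was thus the highest and tuft library 5 the lowest tuft library for the enzymes. Tuft library 4 was also the highest for every Reg gene, while tuft library 5 was the lowest for Reg1, Reg2 and Reg3a but not for Reg3b, Reg3d and Reg3g. Of the 5 acinar transcription factors, 4 were called lower, again against 3.99% of all listed genes. Among the 4 were Ptf1a, at 0 in 3 tuft libraries and at most 0.62 in the others, and Rbpjl, at 0 in 3 tuft libraries. When all 29 genes were ordered by their difference, Reg3a and Reg3d came first, Reg2, Reg3b and Reg3g took places 15, 17 and 22, and Reg1 came last. Just before Reg1 came Ctrb1 (-2.49) and Clps (-2.37), both at 15.21 to 15.65 in the non-tuft libraries, above Reg1 in each. Whether the shared top of the normalized scale limited the differences of the highest genes was not tested.

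**Figure D4:**
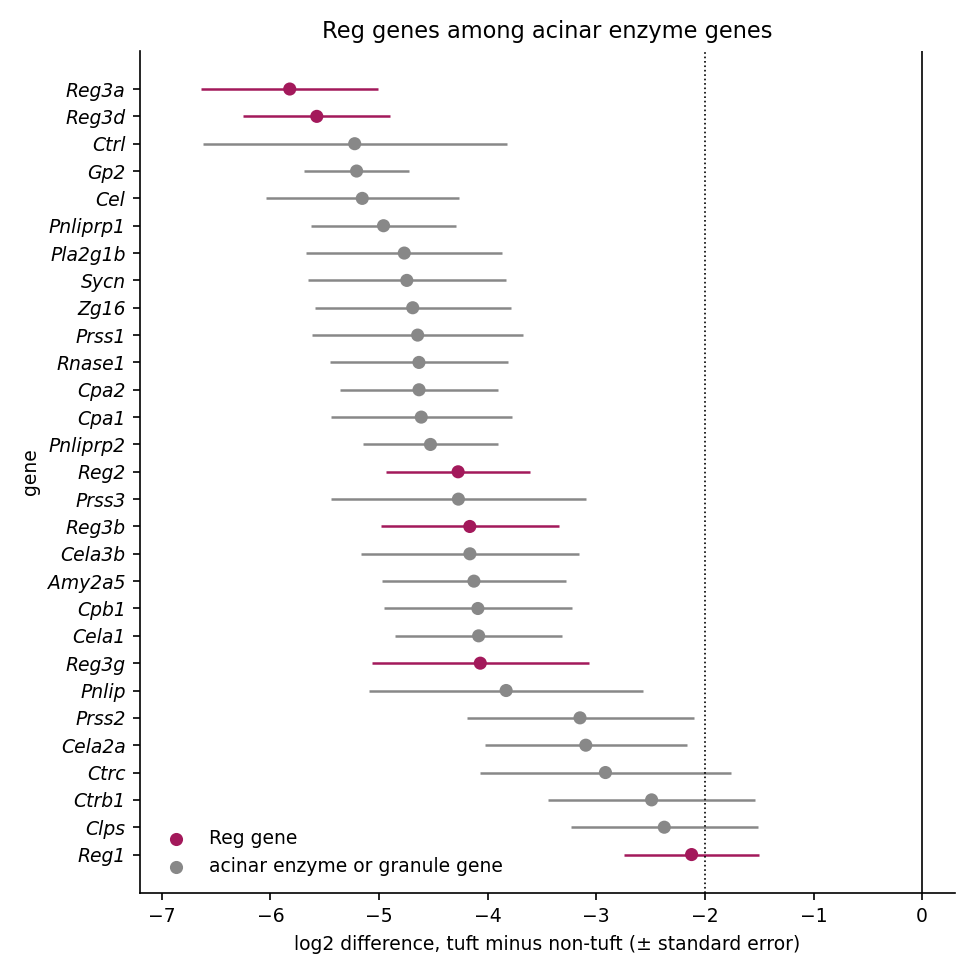
Log2 difference (tuft minus non-tuft) with its standard error from limma, n = 5 libraries a group, for the 6 Reg genes and the 23 acinar enzyme and granule genes. The dotted line marks a fold of 4; Reg3a (-5.82) and Reg3d (-5.57) lie at the top and Reg1 (-2.12) at the bottom.

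Each Reg gene was also taken relative to the mean of the acinar enzyme genes in the same library, a value that a constant shift of a library leaves as it is. Between the groups, it differed by -0.08 log2 units for Reg2, 0.03 for Reg3b and 0.12 for Reg3g, with exact permutation p of 0.929, 0.968 and 0.897. Reg3a was at -3.17 ± 1.21 in tuft and -1.54 ± 1.18 in non-tuft cells (SD, n = 5 each), a difference of -1.63 with an exact permutation p of 0.0714. Reg3d differed by -1.38, with an exact permutation p of 0.0397, which did not pass once the 6 comparisons were counted. Reg1 stood 3.74 to 5.41 log2 units above the enzyme mean in tuft and 1.46 to 3.60 above it in non-tuft libraries, without overlap. Its difference was 2.07, with p = 0.00794 by the exact permutation test, the smallest possible, and it passed with the 6 comparisons counted. It no longer passed without tuft library 1, 2, 3 or 4, where the difference was 1.84 to 2.26, and Reg3d passed without tuft library 5 (-1.79). A limma fit over all listed genes on this scale gave the 6 members the same standard error of 1.17, so it does not rest on the spread of each gene. Its adjusted p was 0.0817 for Reg1 and 0.169 to 0.983 for the other members. In that fit 93.9% of all listed genes were higher in tuft cells at an adjusted p under 0.05, so a relative rise is not particular to Reg1. Whether acinar RNA in the tuft libraries had a part in the Reg values was not tested.

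The libraries also varied within each group, and Reg genes moved together to different degrees. After the group means were subtracted, the correlation over the 10 libraries was 0.896 for Reg2 and Reg3b, 0.841 for Reg3a and Reg3d and 0.812 for Reg3b and Reg3g. It was 0.292 for Reg3b and Reg3d, which are neighbours on the chromosome, and 0.211 for Reg3d and Reg3g. Over the 10 libraries, Reg1 (0.866) and Reg3d (0.859) followed the acinar enzyme mean closely, while Reg3b (0.28) and Reg3g (0.06) did so weakly. The enzyme mean varied more in tuft (SD 2.12) than in non-tuft libraries (SD 0.50), so tuft libraries weigh most in these values. Within the non-tuft group Reg1 did not follow the enzyme mean. Reg1 was lowest (13.61) in non-tuft libraries 1 and 2, where the enzyme mean was highest (11.88 and 12.15). In non-tuft library 3, with the lowest enzyme mean (10.83), Reg1 was at 14.43. These correlations are descriptions over 10 libraries that share their normalization, and carry no test.

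**Figure D5:**
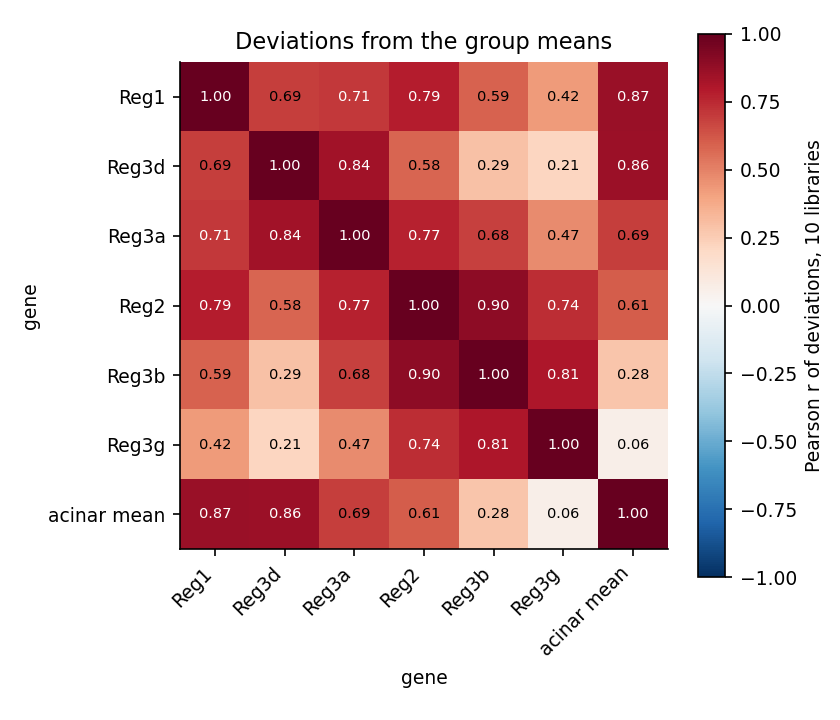
Pearson correlation, over 10 libraries, of deviations from the group means for the Reg genes and the mean of 23 acinar enzyme genes (colour scale from -1 to 1). Reg2, Reg3b and Reg3g form the darker block of 0.74 to 0.90, and the last column falls from 0.87 for Reg1 to 0.06 for Reg3g.

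Outside the family, among genes whose log2 value averaged at least 2, those with the highest correlation over the 10 libraries differed from member to member. For Reg1 they were Cpb1, a carboxypeptidase (r = 0.962), Sidt2 (0.958) and Ctrb1, chymotrypsinogen (0.958). For Reg2 they were Pnliprp1, a lipase-related protein (0.985), Serpina6 (0.968) and Dhx34 (0.961). For Reg3d they were Amy1, an amylase (0.986), Pnliprp2, a lipase-related protein (0.985), and Klk1, a kallikrein (0.977). For Reg3a they were Trf, transferrin (0.978), Rpl13 (0.972) and Klk1b5 (0.969). Reg3b was most like Serpinb9 (0.977), Serpina6 (0.977) and Dhx34 (0.947), and Reg3g most like Rps3a1 (0.933), Mknk1 (0.927) and Dhx34 (0.915). The difference between the groups contributes to each of these values.

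Receptor and pathway genes of the family were looked at next. Reg4, a related lectin gene elsewhere in the genome, was not among the genes analysed here. Extl3, a glycosyltransferase described as a Reg receptor, was at 3.99, 2.38, 3.60, 3.36 and 3.34 in non-tuft libraries and at 2.99, 1.71, 2.31, 2.19 and 2.05 in tuft libraries. These groups overlapped, and the difference in Extl3 of -1.08 log2 units (standard error 0.42) did not pass the test (adjusted p = 0.120 by limma).

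Of the 22 genes of the IL-6 and IL-22 receptor and Stat3 pathway looked for, 19 were listed, 1 was called lower and 18 were not called, with a median difference of -0.48 log2 units. A share of 1 in 19 is near the 3.99% of all listed genes called lower and is no result about the pathway. The called gene was Il6st, the shared receptor chain gp130, at 1.14 ± 1.16 in tuft and 3.58 ± 0.55 in non-tuft cells (SD, n = 5 each; adjusted p = 0.0109 by limma). Il22ra1, the epithelial IL-22 receptor chain, was listed at 0 in all 5 tuft libraries and at 0.77, 2.33, 0.41, 2.89 and 2.68 in the non-tuft libraries (adjusted p = 0.0356 by limma), but its fitted fold was under 4. Osmr, the oncostatin M receptor, differed by -2.37 (adjusted p = 0.0668 by limma), and Stat3 itself by -0.60 (adjusted p = 0.524 by limma). Of 9 listed genes of the IL-17 and NF-kB pathway, 1 was called lower and 8 were not called, which again is no result about the pathway beside the 3.99% of all listed genes. That gene was Relb, an NF-kB subunit, which fell by 3.95 log2 units (adjusted p = 1.17e-04 by limma) and was listed at 0 in 3 tuft libraries. Nfkbiz differed by -1.55 (adjusted p = 0.132 by limma) and Myd88 by 1.26 (adjusted p = 0.315 by limma).

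Of 13 listed genes of other secreted defence proteins, 6 were called lower and 1 higher, against 3.99% and 4.32% of all listed genes, with a median difference of -2.19. The difference was -6.14 log2 units for Lcn2, an iron-sequestering lipocalin, -5.19 for Nupr1, a stress protein first described in pancreatitis, and -2.86 for Ang, angiogenin, with adjusted p of 8.12e-04, 6.08e-05 and 3.61e-04 (limma). The gene called higher was Lgals4, a galectin, named after its value was seen, which rose by 3.63 (adjusted p = 0.00310 by limma). The other lectins of the list were not called, with differences of -0.36 for Lgals3, -0.16 for Lgals9 and -2.19 for Itln1 (adjusted p of 0.897, 0.871 and 0.439 by limma).

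Markers of other cell types were counted in the same way. Of 15 islet genes, 5 were called lower, against 3.99% of all listed genes, and 10 were not called. The summed level of the 15 was 4.70 to 7.15 in tuft and 7.21 to 14.4 in non-tuft libraries (log2 units). The 3 islet genes with the smallest p were Pcsk2 (-3.84), Ttr (-2.26) and Ppy (-4.98), and Ppy was listed at 0 in all tuft libraries. Islet transcripts were uneven among non-tuft libraries 1 to 5. Ins1, an insulin gene, was at 13.44, 8.25, 3.89, 0.48 and 2.64 there, and Sst, somatostatin, at 10.87, 3.06, 11.10, 1.02 and 9.38. Of 12 ductal genes, Tspan8 was called higher (3.02), Spp1 lower (-4.55) and 10 were not called. Beside the 4.32% and 3.99% of all listed genes called higher and lower, 1 in each direction is no result about the ductal list. Of 6 listed leukocyte genes, only Ptprc was called higher (2.72, adjusted p = 0.00292 by limma). Beside the 4.32% of all listed genes, this is no result about the list. Ptprc encodes Cd45, which both groups were sorted as negative for. It was at 2.74 to 4.33 in tuft and 0 to 1.93 in non-tuft libraries, and the source of this RNA was not tested. The 7 listed fibroblast and endothelial genes had adjusted p of 0.459 to 0.963 (limma). Both libraries numbered 5 held fibroblast transcripts. Dcn was at 8.34 in non-tuft library 5 and at 6.84 in tuft library 5, and Lum at 6.84 and 6.19. In tuft libraries 1 to 4 all 7 genes were at 0. Whether islet or fibroblast RNA had a part in the Reg values was not tested.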

How the data were processed

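Low-input RNA-seq was analysed for 5 tuft and 5 non-tuft libraries, grouped by their titles. The authors mapped 50-base reads to mm9 with HISAT2, computed RPKM per gene (StringTie, Ballgown), removed genes of low variance and quantile normalized log2(RPKM + 1). The log2 values that the authors deposited cover 12160 genes, and the added 1 follows from their lowest values, which are 0 in 9 libraries and 0.17 in non-tuft library 2. The columns of their own comparison that the authors deposited (fold ratio, p-value, false discovery rate) were not used. Tool versions upstream, depths and counts are not given in the sources used here.

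Groups were compared with limma 3.58.1 in R 4.3.3 (lmFit and eBayes, no covariates, Benjamini-Hochberg adjustment over all 12160 genes), and a call needed both an adjusted p under 0.05 and a fold over 4. The fit was tested on simulated data. Single values were compared with an exact two-sided permutation test over 252 splits. The members and gene lists were chosen with earlier results of these data known. Named were all Reg genes, Extl3, Cel, Cpa1, Amy2a5 and the 3 genes with the smallest p of each list. The 3 genes most correlated with each Reg gene were also named. Stat3, Dclk1, Ins1, Sst, Lgals3, Lgals4, Lgals9 and Itln1 were named after their values were seen. Positions came from an NCBIM37 annotation and promoters from RefSeq, where all 6 matched by symbol. Alternatives were other added constants, filters, centrings, thresholds and fits, and each library left out. Python 3.11.15, scipy 1.17.1 and matplotlib 3.10.9 were used.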

Additional observations from a re-analysis of the deposited data

Results flagged for a closer look

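The log2 ratio of Reg3a to Reg3b in non-tuft library 3 was -3.79, far below the other 4 non-tuft libraries, where Reg3a was at 8.57 to 11.35 and Reg3b at 10.31 to 12.86. In that library Reg3b was at 13.11 and Reg3a at 9.32. It was flagged because its gap to the nearest library, over the range of the group, exceeded Dixon's critical value of 0.71 for 5 samples. Of 54 groups of values tested in this way 1 was flagged, and chance flags about 1 in 20.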

How the results depend on the processing

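Reg2, Reg3a, Reg3b and Reg3d kept their direction and their call in the limma fit under all 18 alternatives that left the thresholds as they were. An adjusted p under 0.01 called 4 Reg genes. Leaving out each library in turn gave differences of -4.80 to -3.78 for Reg2, -6.56 to -5.46 for Reg3a, -4.82 to -3.80 for Reg3b, -6.03 to -5.19 for Reg3d, -2.49 to -1.54 for Reg1 (call lost in 9 of 10) and -4.62 to -3.33 for Reg3g (call lost in 4 of 10). The number of Reg genes called was then 4 to 6 and of all genes 841 to 1010. Reg1 also lost its call with 0.1 added in place of 1 (-2.12, adjusted p = 0.0843), with ribosomal protein genes as the centre (-1.33, adjusted p = 0.111) and with the replicate block (-2.12, adjusted p = 0.0658), and Reg3g with 0.1 added (-4.85, adjusted p = 0.0777). Without non-tuft libraries 1, 2 and 5, Reg1 (-2.45, adjusted p = 0.198) and Reg3g (-5.23, adjusted p = 0.0661) lost their calls, and 769 genes were called. Adding 10 in place of 1 called 278 genes in all, and limma's treat called 105 genes, of which 2 were Reg genes. Centring on 77 ribosomal protein genes moved the median of all genes from 0.02 to 0.81 and called 1497 genes, 1272 of them higher, against 525 higher of 1010.

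Relative to the acinar enzyme genes, leaving out each library gave 1.82 to 2.36 for Reg1 (lost in 4 of 10), -0.55 to 0.44 for Reg2, -2.07 to -1.27 for Reg3a, -0.53 to 0.68 for Reg3b, -1.79 to -1.10 for Reg3d (gained in 1 of 10) and -0.57 to 1.14 for Reg3g. Reg3g turned to -0.61 with 0.1 added and Reg3b to -0.17 with 10 added. These constants, and limma over all genes on this scale (Reg1 2.07, adjusted p = 0.0817), were chosen after seeing the data, as were the alternatives for pairs. Of the 15 pairs, 0 to 3 passed when a library was left out, 0 with 10 added (5 at an unadjusted p under 0.05) and 0 with the replicate block.

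Equal replicate numbers were not treated as pairs. Deviations of equally numbered libraries correlated at r = 0.0619 to 0.24. Of the 5 values, 3 were above 0.1. Tuft libraries 2, 4 and 5 and non-tuft libraries 1, 3, 4 and 5 correlated best with their own number, and the other libraries did not. The labels do not settle whether equal numbers mark the same mouse. In the replicate block by exact sign flips Reg1 stood at 2.07 relative to the enzymes, where 5 pairs cannot give p below 0.0625. With the block in limma 5 Reg genes were called. The cause of these changes was not tested. Depth is unknown, so a value of 0 sets no limit on expression.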
